A study of Capra hircus with 2 samples.

Results

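E125 MGP-low stromal barcodes are the droplets of the E125 fetal goat ovary library (E for embryonic day) that carried stromal transcripts with little or no matrix Gla protein (MGP) mRNA. A barcode stands for 1 droplet and, in most cases, 1 cell. It was taken as a member when it had 500 or more detected genes, 1 UMI or less of MGP, and 2 or more UMIs of COL1A1, COL1A2 and TCF21 together. It also had to have 1 UMI or less of NOTCH3 and ACTA2 together, 2 or less of TOP2A, CENPF and TPX2 together, and 0 of PECAM1, KDR, KRT8, FST and AIF1. A UMI (unique molecular identifier) marks a captured mRNA molecule. The members were thus chosen by the counts of these genes in the same barcodes, so the levels of these genes are given below only as a description. The rule found 1022 members among 8346 barcodes of the library, which is 12.2% (exact binomial 95% interval 11.5 to 12.97), and among 12743 barcodes of the series.

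The series holds 2 droplet single-cell RNA libraries of Capra hircus fetal ovary, labelled female, from stages E125 and E85, with 1 library for each stage. No treatment, strain or genotype is given for either, and neither is the number of fetuses behind a library. The tissue protocol speaks of testes although the tissue and sex labels say ovary and female. With 1 library per stage there is no replicate, so no test was made, and intervals cover counting error only.

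Ovarian stroma is the mesenchyme between the germ cell cords and, later, the follicles. Its cells make fibrillar collagens and small leucine-rich proteoglycans such as decorin (DCN), and in the fetal gonad TCF21 marks mesenchymal progenitors. MGP is a secreted, vitamin K-dependent matrix protein that inhibits calcification and binds bone morphogenetic proteins. Stroma grows in among the germ cell nests as primordial follicles assemble.

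The members held 2550437 UMIs, 5.13% of the library's total of 49692252. Their median was 2331 UMIs (range 669 to 19816) and 1028 genes, and a median of 3.06% of UMIs came from mitochondrially encoded genes. The 7324 other E125 barcodes had a median of 3230 UMIs, and 284 of them had 20000 UMIs or more and held 39.7% of the UMIs of that group. Gene and list comparisons with all other barcodes are therefore also given against the 7040 with fewer than 20000 UMIs, but marker sums are not. The stromal barcodes most like the members met the same rule except that they carried 2 or more MGP UMIs, and are called MGP-high. There were 2477 of them, 29.7% of the library, with a median of 2998 UMIs and 3.45% mitochondrial UMIs. The E85 library had 4397 barcodes and 17748948 UMIs. The libraries shared 13 barcode sequences, and 1 of these belonged to a member. Features without a gene symbol took 35.5% of the members' UMIs and were not named.

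The rule cut through a continuum of MGP. Of the members, 692 had no MGP UMI and 330 had 1, and just outside the rule 296 barcodes had 2 and 262 had 3. DCN, which the rule did not use, was at 4914 CPM (counts scaled to the same total of summed UMIs in each group) at 0 MGP UMIs and 4253 CPM at 1. It was at 3945 CPM at 2 MGP UMIs and 3764 CPM at 3, so the level changed by small steps across the threshold. At the lower edge of the collagen and TCF21 criterion, 142 members had 2 UMIs of these genes, while 133 otherwise eligible barcodes had 1 and 376 had 0. DCN stood at 2949 CPM at 2 such UMIs, 1498 CPM at 1 and 237 CPM at 0. MGP alone kept out 2477 barcodes, the collagen and TCF21 criterion alone 509, and NOTCH3 with ACTA2 alone 398. FST alone kept out 59, the minimum of genes 52, and the proliferation genes 43.

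MGP counts depend on depth. When each barcode of 2000 or more UMIs was thinned to 2000, 594 of 629 members (94.4%) still met the rule, but they made up only 58.9% of the 1008 thinned barcodes that met it. A further 235 (23.3%) of these 1008 were MGP-high as deposited. After thinning, 23.7% of members had an MGP UMI, against 96.9% of MGP-high barcodes. An endothelial gate served as a reference from another cell type, in which free RNA and the cells' own mRNA were not told apart. It held 662 barcodes with 500 or more genes, fewer than 20000 UMIs, 3 or more UMIs of PECAM1 and KDR and at most 1 of NOTCH3 and ACTA2, and 8.32% of them had an MGP UMI after thinning (13.7% unthinned, at a median of 5341.5 UMIs).

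As a group, the members carried stromal genes outside the rule, and all 5 of the measured stromal markers not in the rule were higher in members than in the other barcodes. These 5 summed to 5563 CPM in members, 3878 CPM in MGP-high and 4685 CPM in the perivascular gate described below. They had 3 or more UMIs in 93.2%, 95.4% and 90.8% of barcodes in the same order. High levels of them were thus not particular to members. DCN had at least 1 UMI in 97.3% of members and stood at 4696 CPM in members, against 1180 CPM in all other E125 barcodes and 1882 CPM in those under 20000 UMIs. In the endothelial gate it was at 181 CPM. PDGFRA, the platelet-derived growth factor receptor of mesenchyme, was at 303 CPM in members and 149 CPM in the other barcodes under 20000 UMIs. COL6A3, a chain of type VI collagen, was at 210 CPM in members and 97.7 CPM in those others. Lumican (LUM), another leucine-rich proteoglycan, was at 127 CPM in members and 62.6 CPM in those others. Fibrillin-1 (FBN1) was at 227 CPM and 163 CPM, the smallest of the 5 differences. Among the rule's own genes, COL1A1 was detected in 70.6% of members, COL1A2 in 80.8% and TCF21 in 77.1%, and 427 members (41.8%) had all 3. TCF21 without either collagen was seen in 101 members, and a collagen without TCF21 in 234.

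Markers of other cell types were mostly low. All 8 endothelial markers outside the rule were lower in members, with CDH5, EGFL7 and CLDN5 at 0 UMIs, and their summed level was 43.9 CPM in members, 321 CPM in other barcodes and 1920 CPM in the endothelial gate. All 9 such myeloid markers were lower, with CSF1R, C1QB, C1QC, TYROBP and CD163 at 0 and a sum of 5.49 CPM in members and 94.2 CPM in other barcodes. All 9 pregranulosa markers were lower (LGR5 at 0), at 107 CPM in members against 433 CPM. All 7 surface epithelium markers were lower (UPK1B at 0), at 42.0 CPM in members against 271 CPM. Perivascular markers did not follow this. Without NOTCH3 and ACTA2, 6 of 8 were higher in members, with RGS5 at 0, and the sum was 494 CPM in members, 302 CPM in MGP-high and 322 CPM in all other barcodes. A perivascular gate of 663 barcodes under 20000 UMIs, with 3 or more UMIs of NOTCH3 and ACTA2 and 0 of PECAM1 and KDR, had 1104 CPM. Smooth muscle myosin MYH11 led this sum, with 282 CPM in members, 187 CPM in MGP-high and 788 CPM in the perivascular gate. Germ cell markers summed to 264 CPM in members and 3220 CPM in other barcodes, which include those of 20000 or more UMIs. Their sum was lower in MGP-high and in the perivascular gate, 199 CPM in each, and in the endothelial gate, 141 CPM. Such markers had 3 or more UMIs in 3.91% of members, 4.20% of MGP-high and 9.12% of other barcodes. The zona pellucida gene ZP3, an oocyte gene, had a UMI in 23.1% of thinned members and 22.4% of thinned MGP-high barcodes. Its share was 16.8% in the thinned endothelial gate, and the unthinned shares were 30.3%, 32.4% and 39.0% in the same order. The source of these UMIs was not tested. Lymphoid, glial and erythroid markers summed to 7.45, 27.1 and 1.18 CPM in members, against 38.5, 31.7 and 3.56 CPM in other barcodes. The glial sum was higher in members than in MGP-high, at 7.24 CPM, and lay in few members. Only 5 members had 3 or more glial UMIs, and 1 of them had 25. Steroidogenic markers summed to 99.98 CPM in members and 127 CPM in other barcodes, and mesonephric or rete markers, most of it WT1, to 359.5 CPM in members and 327 CPM in other barcodes.

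Set against all other E125 barcodes, 12877 genes outside the rule had 50 or more summed UMIs, and 789 (6.13%) were 2-fold or more higher in members and 2492 (19.4%) 2-fold or more lower. Against the others under 20000 UMIs, 317 of 11197 genes (2.83%) were higher and 1240 (11.1%) lower. Among the 12 genes with the largest ratios were IGFBP3, DLK1, CHODL, NRK, COL6A2, CNTN1, EMILIN2, SPON2, HAPLN1 and IGSF10. The ratios of these 10 ran from 5.94 for IGFBP3 to 4.16 for IGSF10, and against barcodes under 20000 UMIs from 3.95 for IGFBP3 to 2.85 for SPON2. They include a secreted binding protein of insulin-like growth factors (IGFBP3) and matrix proteins (COL6A2, EMILIN2, SPON2, HAPLN1). CHODL, a membrane lectin, stood at 186 CPM in members and 49.6 CPM in other barcodes under 20000 UMIs. SPON2 was at 577 CPM in members and 203 CPM in those others.

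The 12 lowest genes were CA4, S100A4, VWF, SLC6A6, LMO2, ESAM, FILIP1, CCL21, LYVE1, SOX18, FLT1 and THSD1. All 12 were higher in the endothelial gate than in either group. CA4 was at 1.57 CPM in members, 140 CPM in other barcodes under 20000 UMIs and 696 CPM in the gate, and von Willebrand factor (VWF) at 2.35, 120 and 631 CPM in the same order. The rule excluded endothelial droplets through PECAM1 and KDR, so these 12 describe what was left out.

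Matrix and hedgehog lists were high in members when set against the library, while most other signalling lists were not. Against barcodes under 20000 UMIs, 4 of 12 measured collagens were 2-fold higher (COL6A2, COL5A2, COL5A3, COL6A3) and none lower, beside the 2.83% of all genes that were higher. The list's median log2 ratio was 0.89, beside -0.02 for all genes. Of 8 leucine-rich proteoglycans, DCN, ASPN and LUM were higher (median 0.77), and of 37 other matrix genes 8 were higher and POSTN and HAPLN3 lower (median 0.48). Of 9 hedgehog genes, the co-receptors GAS1 and BOC, the pathway inhibitor SUFU and the transcription factor GLI2 were higher (median 0.72). GAS1 was at 10.6 CPM in members and 4.15 CPM in those others, and GLI2 at 43.5 and 21.7 CPM. Growth factors and receptors divided, with 10 of 37 higher, among them NRG1, FGF7 and FGF10, and 10 lower. DNA replication genes had 0 of 24 higher and 5 lower (median -0.55), after a rule that limited TOP2A, CENPF and TPX2. Steroid synthesis had 1 of 14 higher, NR5A1, which rests on 9 UMIs in members, and 3 lower. Matrix crosslinking and remodelling genes had 5 of 29 higher and ADAMTS5 lower, and insulin-like growth factor genes had IGFBP3, IGFBP5 and IGF1 higher and STC2 lower among 15. BMP and TGF-beta genes were more often low, with 10 of 35 lower and GDF10, CHRD and INHBA higher, beside 11.1% of all genes lower. Wnt genes had 0 of 28 higher and 3 lower, Notch genes DLK1 alone higher and 3 of 11 lower, and retinoic acid genes 0 of 15 higher and 4 lower. The hedgehog levels were largely shared with MGP-high stroma. Against MGP-high the list's median was 0.25, with 1 of 8 genes 2-fold higher. GLI2 had a UMI in 8.11% of thinned members and 8.81% of thinned MGP-high barcodes.

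The comparison with MGP-high stroma asks what goes with low MGP inside the stromal barcodes. Members had more mRNA of IGFBP3, DLK1, INHBA, LTBP1, PDGFRL and NRK, and less of WIF1, PCOLCE2, CCL11, APOD, ID3 and WNT5A. Of 8306 measured genes, 144 (1.73%) were 2-fold or more higher in MGP-low and 144 (1.73%) 2-fold or more lower. The median log2 ratio of all genes was 0.01. MGP itself separates the groups by construction.

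IGFBP3, a secreted carrier of insulin-like growth factors, had the largest ratio among genes of 50 CPM or more in either group. It had 279 UMIs at 109 CPM (96.9 to 123) in MGP-low and 97 UMIs at 11.9 CPM (9.66 to 14.5) in MGP-high, a ratio of 9.19 (exact conditional 95% interval 7.27 to 11.7). After thinning it was seen in 18.8% of MGP-low and 1.89% of MGP-high barcodes, and in 1.4975% of the endothelial gate (16.5%, 2.54% and 4.23% unthinned). The MGP-high share was thus close to that of the endothelial gate, and the MGP-low share was not. IGFBP3 UMIs were found in 169 members, 70 of them with 2 or more UMIs, while 20 MGP-high barcodes had 2 or more. DLK1, a membrane protein of preadipocytes and other progenitors that resembles Notch ligands, was at 116 CPM in MGP-low and 25.7 CPM in MGP-high (ratio 4.54, 3.79 to 5.44). It was concentrated in few droplets, with a UMI in 82 members and as many as 20 in a member.

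INHBA and LTBP1 belong to the TGF-beta family system. INHBA encodes the beta A subunit of activin and inhibin, and LTBP1 ties latent TGF-beta to the matrix. INHBA was at 164 CPM in MGP-low and 40.6 CPM in MGP-high (ratio 4.04, 3.49 to 4.68). LTBP1 was at 507 CPM in MGP-low and 126 CPM in MGP-high (ratio 4.03, 3.71 to 4.38), with a UMI in 47.1% of thinned MGP-low, 16.6% of thinned MGP-high and 10.8% of the thinned endothelial gate (45.0%, 22.9% and 23.6% unthinned). PDGFRL was at 69.8 CPM in MGP-low and 18.5 CPM in MGP-high, and the kinase NRK at 165 and 46.6 CPM in the same order. PENK, the proenkephalin precursor, was at 257 CPM in MGP-low and 73.6 CPM in MGP-high, but 1 member held 95 of its 655 UMIs. Without that member PENK stood at 220 CPM in MGP-low. DCLK1, EDIL3, ARHGAP20 and ATP1B1 were also among the 12 highest, with ratios from 3.46 for DCLK1 to 3.11 for ATP1B1.

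**Figure D1:**
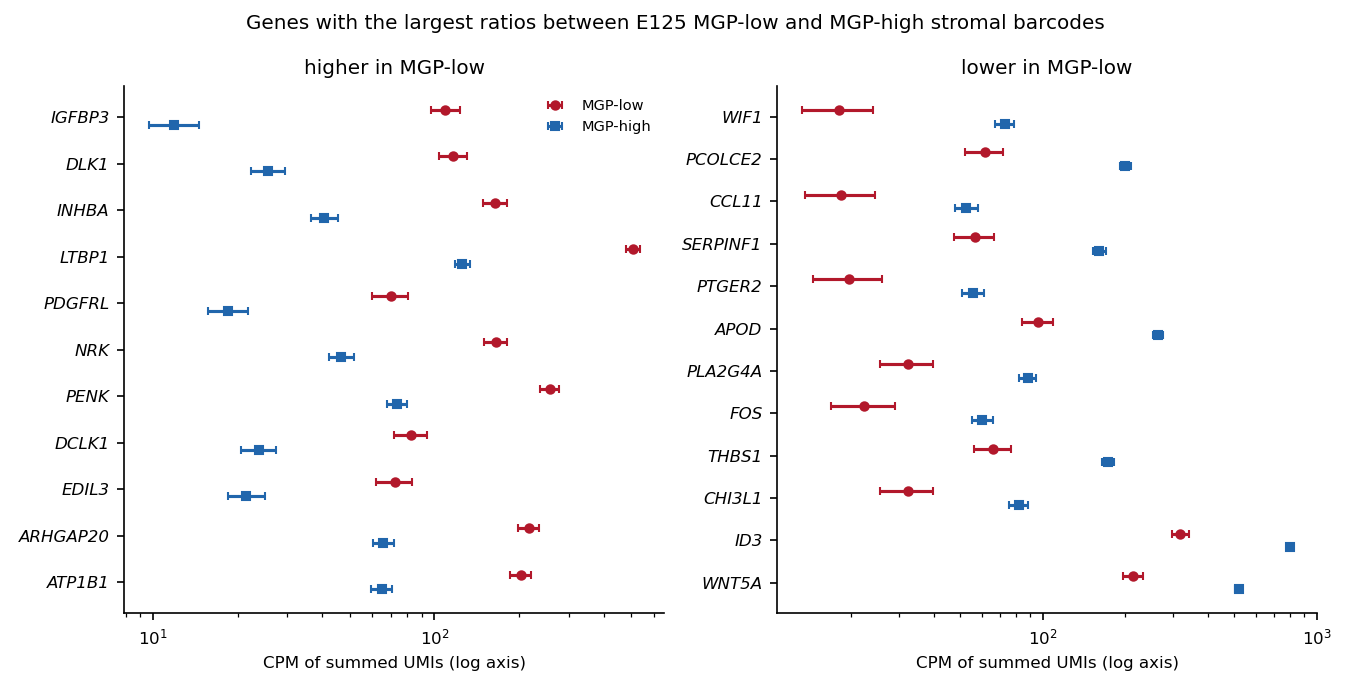
Level in CPM of summed UMIs (log axis) of 11 of the 12 genes with the highest and the 12 with the lowest ratio between E125 MGP-low members (red circles) and E125 MGP-high barcodes (blue squares). Bars are exact Poisson 95% intervals for counting error. IGFBP3 stands apart at 109 CPM in MGP-low and 11.9 CPM in MGP-high, and WIF1 at 18.0 and 72.8 CPM has the lowest ratio.

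Among the 12 lowest genes, the secreted Wnt inhibitor WIF1 was at 18.0 CPM in MGP-low and 72.8 CPM in MGP-high, 4.04-fold lower (2.99 to 5.57). WNT5A, a ligand of noncanonical Wnt signalling, was at 214 CPM in MGP-low and 519 CPM in MGP-high, 2.43-fold lower (2.22 to 2.66), with a UMI in 24.6% of thinned MGP-low, 56.1% of thinned MGP-high and 7.15% of the thinned endothelial gate (31.0%, 66.4% and 20.1% unthinned). PCOLCE2, an enhancer of procollagen processing, was at 61.6 CPM in MGP-low and 201 CPM in MGP-high. ID3, a helix-loop-helix inhibitor induced by bone morphogenetic proteins, was at 318 CPM in MGP-low and 798 CPM in MGP-high, and its relative ID1 at 117 and 245 CPM. The lipocalin APOD was at 96.1 CPM in MGP-low and 264 CPM in MGP-high. SERPINF1, PTGER2, PLA2G4A, THBS1, CHI3L1, FOS and the chemokine CCL11 were 2.54-fold (CHI3L1) to 2.86-fold lower. CCL11 was seen in 25 members only, and 1 of these held 10 of its 47 UMIs.

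Over bins of MGP UMIs, the 12 highest genes declined and the 12 lowest climbed in every step, except PENK, CCL11 and THBS1. These genes were chosen by their ratio across the MGP threshold in the same barcodes. Their overall direction over the bins was thus set by that choice, and the levels are a description only. IGFBP3 was at 141 CPM in stromal barcodes without MGP UMIs, 46.2 CPM at 1, 24.96 CPM at 2 to 4, 12.7 CPM at 5 to 9 and 1.90 CPM at 10 or more. INHBA was at 208, 75.9, 55.7, 40.4 and 30.1 CPM over the same bins, with the largest step between 0 and 1 UMI. WNT5A was at 172, 299, 381, 515 and 622 CPM, and ID3 at 282, 391, 623, 766 and 951 CPM, both climbing in every step. CCL11 was at 10.5, 34.4, 52.2, 95.7 and 15.5 CPM, so that its level at 10 or more MGP UMIs was near that at 0. THBS1 was at 201 CPM at 5 to 9 and 187 CPM at 10 or more, and PENK at 116 CPM at 1 and 119.9 CPM at 2 to 4. The median depth also climbed over these bins, with 2295.5, 2383, 2594, 2898.5 and 3485.5 UMIs. In barcodes of 2000 to 3000 UMIs alone, an alternative added after seeing the data, the 12 highest genes all stayed 2-fold or more higher in MGP-low. Of the 12 lowest, 11 were measured there, all lower, and 9 of them 2-fold or more.

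**Figure D2:**
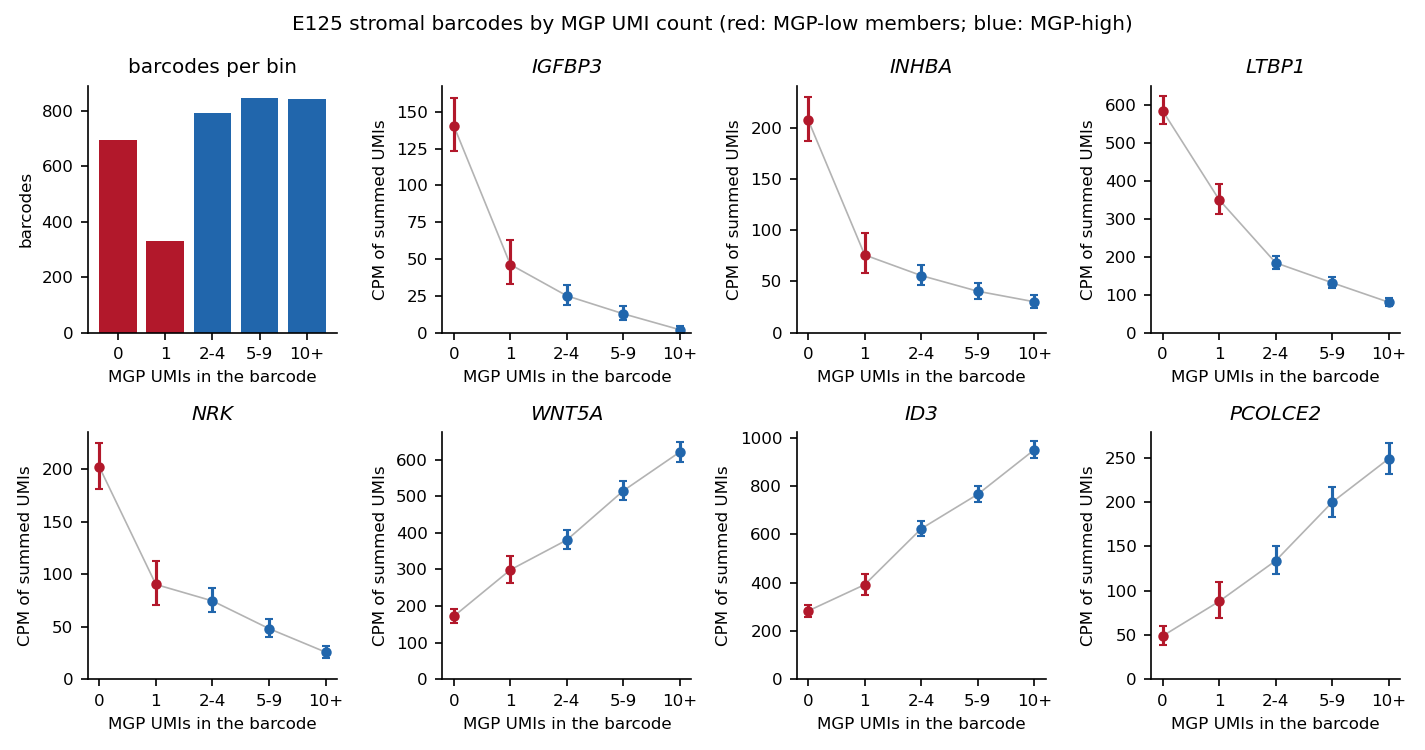
E125 stromal barcodes binned by their MGP UMI count (x axes), with members in red and MGP-high barcodes in blue. The upper left panel gives the number of barcodes, and the others the CPM of summed UMIs of a gene with exact Poisson 95% intervals. IGFBP3, INHBA, LTBP1 and NRK decline with MGP, while WNT5A, ID3 and PCOLCE2 climb. The genes shown were chosen by their ratio between MGP-low and MGP-high in these same barcodes.

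Lists of related genes were compared between MGP-low and MGP-high in the same way, beside the 1.73% of all genes in each direction. Of 12 collagens, COL15A1 and COL6A2 were 2-fold higher and none was lower, with a median log2 ratio of 0.65. COL6A2, a type VI collagen chain, was at 365 CPM in MGP-low and 182 CPM in MGP-high (ratio 2.00, 1.84 to 2.18). COL12A1 went the other way, at 224 CPM in MGP-low and 396 CPM in MGP-high, within 2-fold. Of 8 leucine-rich proteoglycans, ASPN, LUM and OGN were higher. None of these collagens and proteoglycans stayed 2-fold higher once the subset of members richest in IGFBP3, described below, was left out. That subset was itself formed from the levels of genes outside the rule, so this is a description only. OGN was at 455 CPM in MGP-low and 193 CPM in MGP-high, and LUM at 127 and 52.3 CPM, while DCN was within 2-fold at 4696 CPM in MGP-low and 3102 CPM in MGP-high. Of 36 other matrix genes, LTBP1, CILP, LAMA4, HAPLN1, EMILIN2 and NID2 were higher and THBS1 and HAPLN3 lower.

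Signalling lists held members of both directions. Among 29 growth factors and receptors, NRG1, PDGFRL, KITLG, FGF10, FGF7, PDGFA, EDNRA and CCN2 were higher and PDGFD lower. The ErbB ligand NRG1 had the largest ratio of any list gene, 17.7 (9.24 to 37.3), from 61 UMIs at 23.9 CPM in MGP-low and 11 UMIs at 1.35 CPM in MGP-high. Among 27 genes of the BMP and TGF-beta list, INHBA, GDF10 and the BMP antagonist CHRD were higher, and ID3 and ID1 lower. Among 23 Wnt genes, RSPO3 and SFRP1 were higher and WIF1 and WNT5A lower. SFRP1, a secreted Wnt antagonist, was at 42.7 CPM in MGP-low and 17.4 CPM in MGP-high. Of 8 hedgehog genes only HHIP, a hedgehog-binding inhibitor, was 2-fold higher, at 20.8 CPM in MGP-low and 3.31 CPM in MGP-high. Its pathway receptor PTCH1 was at 51.4 CPM in MGP-low and 27.1 CPM in MGP-high, within 2-fold.

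Among 30 stromal and gonadal transcription factors, 3 were higher, LHX9 and OSR2 among them, and none lower. LHX9, a factor of the early gonad, was at 25.9 CPM in MGP-low and 3.93 CPM in MGP-high (ratio 6.59, 4.26 to 10.4). Retinoic acid genes leaned low, with a median log2 ratio of -0.69 over 11 genes and CYP26B1 alone 2-fold lower, on 13 UMIs in MGP-low. The retinal reductase DHRS3 was at 400 CPM in MGP-low and 750 CPM in MGP-high, and the retinaldehyde dehydrogenase ALDH1A1 at 64.3 and 122 CPM. Of 21 immediate early and heat shock genes, 4 were lower (BTG2, FOS, EGR1, MYC) and none higher. Steroid synthesis (11 genes), nuclear receptors (17), HOX genes (8), ribosomal proteins (22) and mitochondrially encoded genes (12) had no member 2-fold apart. The remaining lists had 1 to 4 higher, and PCOLCE2 of the matrix crosslinking list was the lower one among them, with CCND1 in DNA replication at 196 CPM in MGP-low and 64.3 CPM in MGP-high and ACTG2 in contractile genes at 175 and 64.7 CPM.

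**Figure D3:**
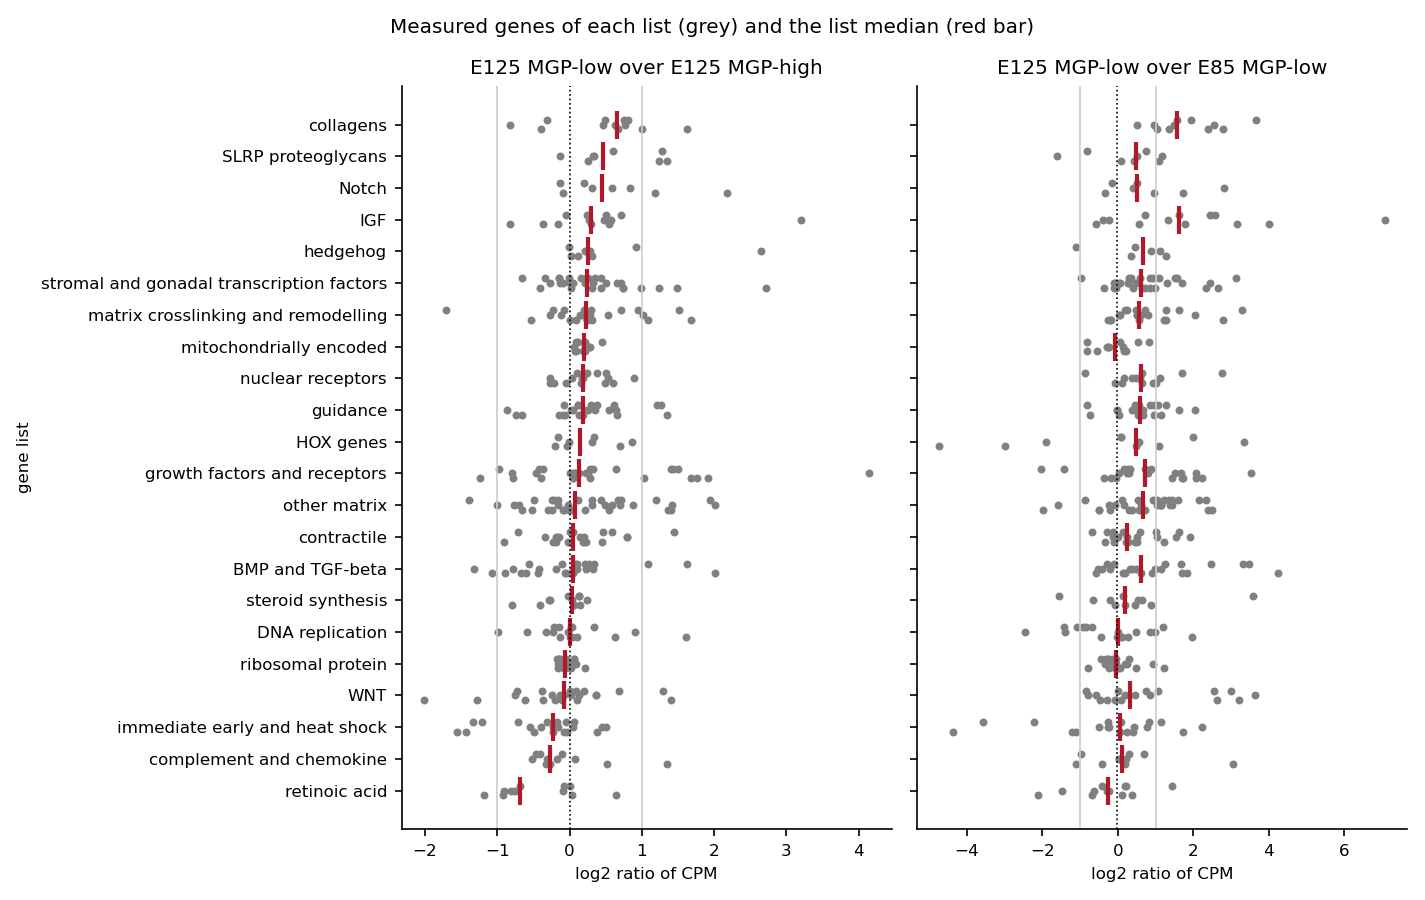
Log2 ratio of CPM of each measured gene (grey points) of 22 gene lists, with the list median as a red bar, for E125 MGP-low over E125 MGP-high (left) and E125 MGP-low over E85 MGP-low (right). The dotted line is the median of all measured genes and pale lines mark 2-fold. Collagens have the highest list median on the left, 0.65, and insulin-like growth factor genes the highest on the right, 1.62.

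Several genes that were high in members were as high or higher in the perivascular gate, where MGP played no part in the choice. IGFBP3 was at 124 CPM in the perivascular gate, DLK1 at 128 CPM, INHBA at 205 CPM, LTBP1 at 628 CPM and OGN at 875 CPM. After thinning, LTBP1 had a UMI in 61.0% of that gate and OGN likewise in 61.0%. EDIL3 and ARHGAP20 were lower there than in members, at 34.0 and 128 CPM. The rule allows a member 1 UMI of NOTCH3 and ACTA2, 274 members had that UMI, and the part of perivascular cells in these levels was not tested.

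The members were not uniform. Grouping them by their other genes (Leiden clustering without the rule genes) gave subsets of 444, 290, 270, 13 and 5 barcodes. The genes that lead a subset also formed it, so their values are a description only. Subset 1 (43.4% of members) was led by IGFBP2, TMEM163, IVNS1ABP, ITIH5, GRIN2B and KCNK12. Subset 2 (28.4%) was led by IGFBP3, LRP1B, DLK1, FGF7, ANGPTL5 and INHBA. Subset 3 (26.4%) was led by HS3ST3B1, CXCL10, C3, ELL2, CXCL14 and HAPLN1. The 13 barcodes of subset 4 were led by ISG15 and other interferon-induced genes. The 5 barcodes of subset 5 were led by PDGFA, NIBAN1 and ADAMTSL1, and 20% of them had a TCF21 UMI. Glial markers summed to 2.89, 3.97 and 6.99 CPM in subsets 1, 2 and 3, beside 27.1 CPM in all members. Most glial UMIs of the members thus lay in the small subsets 4 and 5. Whether these few barcodes are stromal was not tested.

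Of the 6 genes that lead subset 1, 5 were at levels near those of the MGP-high barcodes, while KCNK12 was at 52.0 CPM in subset 1 and 15.6 CPM in MGP-high. IGFBP2 was at 914 CPM in subset 1, 43.6 CPM in subset 2, 221 CPM in subset 3 and 809 CPM in MGP-high. WNT5A was at 398 CPM in subset 1 and 519 CPM in MGP-high, against 63.5 CPM in subset 2. ITIH5, DHRS3 and ID3 followed the same order, and WT1, a transcription factor of the developing gonad, was at 512 CPM in subset 1, 206 CPM in subset 2 and 292 CPM in subset 3. Against the other members, 3 of 7 measured retinoic acid genes (DHRS3, ALDH1A3, ALDH1A1) were 2-fold higher in subset 1, where 3.13% of 4949 genes were, and 8 of 27 other matrix genes were lower, where 2.61% of all genes were. Genes outside the rule were open to the clustering, so these counts are a description only. Subset 1 had the lowest median depth of the large subsets, 2094.5 UMIs, and the highest mitochondrial share, 3.60%.

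Subset 2 held most of the members' mRNA of several genes that set them apart from MGP-high. It carried 86.7% of the members' IGFBP3 UMIs, 79.1% of DLK1, 74.7% of INHBA, 64.7% of LTBP1, 58.9% of PENK and 53.9% of NRK. IGFBP3 was at 320 CPM in subset 2, 3.85 CPM in subset 1 and 44.7 CPM in subset 3. The rule's collagens, which were left out of the clustering, were also highest there, with COL1A1 at 2461 CPM in subset 2, 393 CPM in subset 1 and 1129 CPM in subset 3. TCF21 ran the other way at 722, 1115 and 839 CPM in the same order, and MGP was lowest in subset 2, at 66.1 CPM, against 182 and 120 CPM. Against the other members, 5 of 11 collagens were 2-fold higher (COL15A1, COL11A1, COL6A3, COL5A2, COL14A1) beside 1.84% of all genes. Unlike COL1A1 and COL1A2, these collagens were open to the clustering, and COL15A1 is among the leading genes of subset 2. Their count, and that of the mitochondrially encoded genes, is thus a description only. Mitochondrially encoded genes were 2-fold lower for 10 of 12 beside 5.4% of all genes, and the median mitochondrial share was 2.09%. The perivascular markers outside the rule summed to 578 CPM in subset 2, 456 CPM in subset 1 and 443 CPM in subset 3. DES was at 151 CPM in subset 2 and 40.5 CPM in subset 1, ABCC9 at 141 and 42.4 CPM, KCNJ8 at 22.5 and 6.75 CPM and TAGLN at 30.4 and 18.3 CPM in the same order. ACTA2, a gene of the rule, was at 82.0 CPM in subset 2 and 13.5 CPM in subset 1. MYH11 went the other way, at 225 CPM in subset 2 and 345 CPM in subset 1. The part of these markers in the levels of subset 2 was not tested.

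Without subset 2, an alternative added after seeing the data, the 732 remaining members still had all 12 genes above MGP-high, but 8 of 12 by 2-fold or more. The genes that lead subset 2, IGFBP3, DLK1, FGF7 and INHBA among them, also formed it, so leaving it out lowers their ratios by construction. IGFBP3 had a ratio of 1.73 to MGP-high, DLK1 of 1.35, INHBA of 1.45 and PDGFRL of 1.98, all within 2-fold, and LTBP1 of 2.02. EDIL3 at 2.75 lost less, and WIF1 stayed at a ratio of 0.25. The count of genes 2-fold higher was 101 (1.24% of 8146) and of genes lower 130 (1.6%). FGF7 and RSPO3 turned from higher to lower, at log2 ratios of -0.24 and -0.20. Several list counts also shrank: 0 of 12 collagens (median log2 ratio 0.38), 0 of 8 leucine-rich proteoglycans (0.17) and 0 of 23 Wnt genes were then 2-fold higher. Of 30 transcription factors LHX9 alone was higher, and of 27 growth factors and receptors KITLG, PDGFA and CCN2. HAPLN1, EMILIN2, LAMA4 and LTBP1 remained higher among other matrix genes. PDGFA and LAMA4 are also among the leading genes of the 5 barcodes of subset 5, which were still included. WNT5A, ID1, MYC, CYP26B1 and HAPLN3 were no longer among the list genes 2-fold lower. List genes newly past 2-fold were CDKN1A, higher, and GMNN, ANGPT1 and TGFB2, lower.

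Subset 3 carried 68.1% of the members' CXCL10 UMIs and 61.1% of C3, genes of the chemokine and complement systems. CXCL10 was at 1121 CPM in subset 3, 179 CPM in subset 1 and 196 CPM in subset 2, and at 899 CPM in MGP-high. CXCL14 was at 58.7 CPM in subset 3 and 11.3 CPM in MGP-high. Against the other members, 2 of 8 complement and chemokine genes, C3 and CXCL14, were 2-fold higher in subset 3 beside 0.546% of all genes, and none was lower beside 2.04%. C3 and CXCL14 lead subset 3 and so also formed it, and this count is a description only. The matrix link protein HAPLN1 was at 166 CPM in subset 3, 43.4 CPM in subset 1 and 87.3 CPM in subset 2. HHIP was likewise highest in subset 3, at 41.9 CPM. CXCL10, CXCL14 and HAPLN1 thus shared a subset, yet CXCL10 was lower in members than in MGP-high (462 and 899 CPM) while CXCL14 and HAPLN1 were higher.

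**Figure D4:**
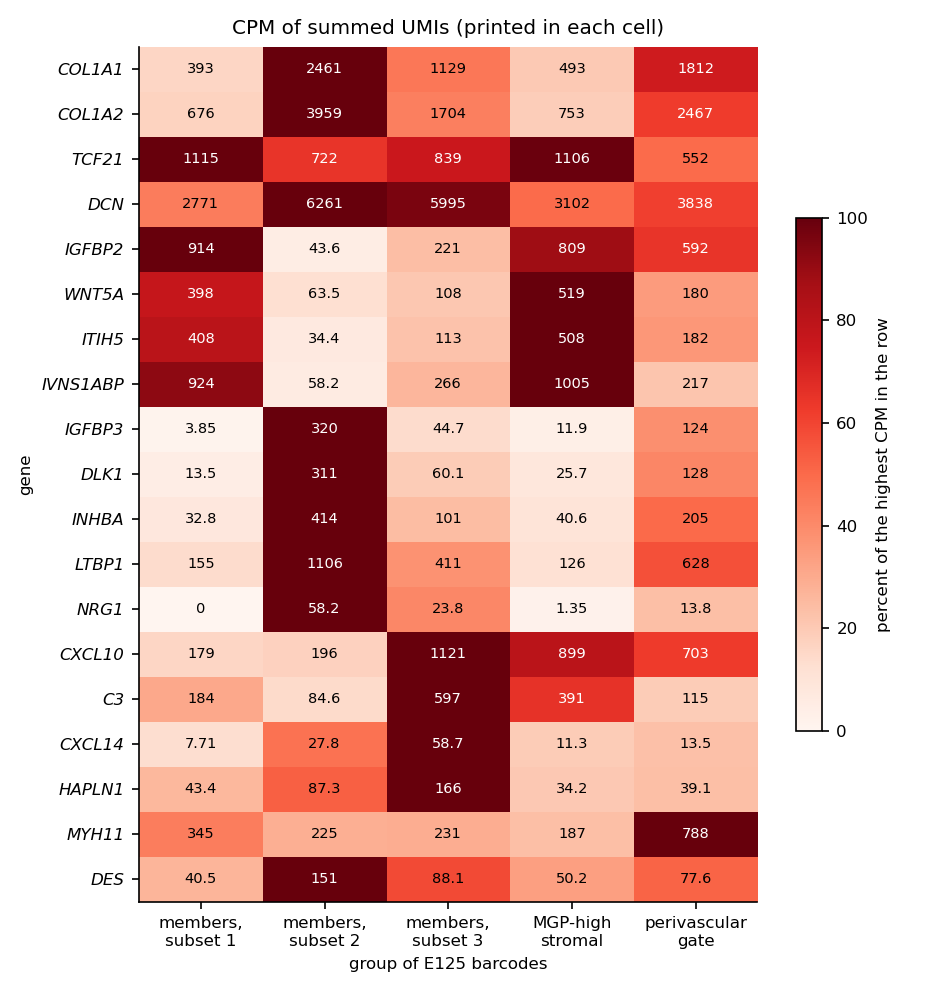
CPM of summed UMIs, printed in each cell, of 19 genes in the 3 large subsets of the members, in MGP-high barcodes and in the perivascular gate of E125, with colour as a percentage of the highest value in the row. IGFBP3, DLK1, INHBA and NRG1 are highest in subset 2, while IGFBP2 and ITIH5 are high in subset 1 and in MGP-high barcodes.

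The members were also divided by the rule's own genes. Between the 788 members with TCF21 and the 234 without, 56 genes (1.13% of 4949) were 2-fold higher and 28 (0.566%) lower. Between the 330 members with 1 MGP UMI and the 692 with 0, 24 genes (0.485%) were higher and 37 (0.748%) lower. IGFBP3 was at a ratio of 0.33 (0.23 to 0.46) in members with 1 MGP UMI, INHBA at 0.36 (0.28 to 0.48) and FGF7 at 0.22 (0.07 to 0.54).

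At E85 the same rule found 2111 of 4397 barcodes, 48.0% (46.5 to 49.5), with a median of 2755 UMIs. Thinned to 2000 UMIs, 16.5% of 6096 E125 barcodes and 50.7% of 3291 E85 barcodes met it. Members made up 29.2% of all stromal barcodes of either MGP level at E125, and 96.6% at E85, where only 75 barcodes were MGP-high. Stage and library cannot be told apart in these shares or in any level below.

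Between E125 and E85 barcodes meeting the rule, 1244 of 7918 genes (15.7%) were 2-fold higher at E125 and 921 (11.6%) lower. Among genes of 50 CPM or more at either stage, IGFBP3 had the largest ratio, with 279 UMIs at 109 CPM in E125 members and 5 UMIs at 0.815 CPM at E85 (ratio 134, 56.8 to 417). In the endothelial gates of the libraries it had 47 UMIs at E125 and 0 at E85. SPON2, a secreted matrix protein of the spondin family, was at 577 CPM in E125 members and 9.13 CPM at E85 (ratio 63.2, 48.4 to 84.1), and at 27.5 CPM in the E125 endothelial gate with 0 UMIs in the E85 gate. GAS6, the ligand of TAM receptor kinases, was at 139 CPM in E125 members and 3.26 CPM at E85. PODXL2 was at 50.2 and 1.30 CPM in the same order.

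Some large stage differences were also large in the endothelial gates, which held 662 barcodes at E125 and 99 at E85. Between those gates 21.2% of 6637 genes were 2-fold higher at E125 and 7.07% lower. The transcription factor KLF13 was at 61.6 CPM in E125 members and 2.61 CPM at E85, a ratio of 23.6, and its ratio in the endothelial gates was 20.6. TAF10 had ratios of 34.3 and 19.2 in members and in the gates, CDC42EP5 89.0 and 30.9, and C4orf48 at least 15.4 in the gates, with 0 UMIs at E85 set to 3, beside 90.4 in members. Of the 8 lowest genes, TUBB2B was at 3.92 CPM in E125 members and 67.3 CPM at E85, 17.2-fold lower, and 14.9-fold lower in the endothelial gates. FOS, WFDC2, CDC23, KRT27, KRT25, NPY and TMEM176B were 5.38-fold (TMEM176B) to 11.8-fold (FOS) lower in members. In the endothelial gates, FOS was 5.82-fold and TMEM176B 7.10-fold lower at E125.

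**Figure D5:**
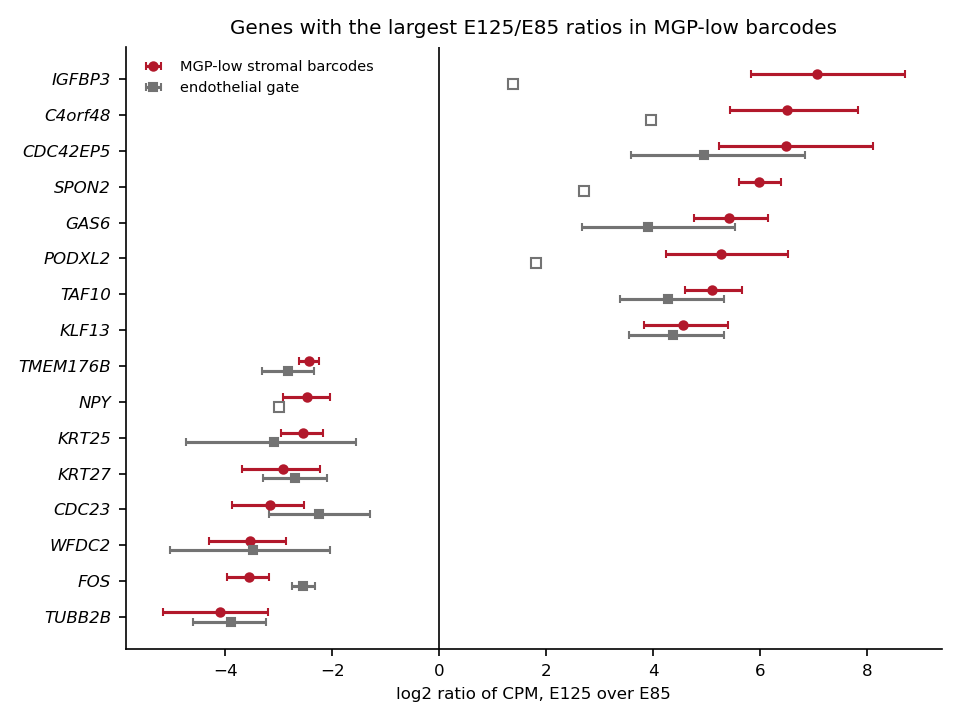
Log2 ratio of CPM, E125 over E85, of the 8 genes with the highest and the 8 with the lowest ratio in MGP-low barcodes (red circles), with the ratio in the endothelial gates beside each (grey squares). Bars are exact conditional 95% intervals for counting error, and open squares mark gates in which a stage had 0 UMIs, set to 3. KLF13, TAF10 and TUBB2B lie close together in stroma and in endothelial barcodes. SPON2 and IGFBP3 had 0 UMIs in the E85 gate, so their squares are lower bounds only. These bounds cannot show whether the ratio in the gates is smaller than in MGP-low barcodes.

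Matrix genes were higher at E125. Of 11 collagens, 9 were 2-fold higher and none lower beside the 15.7% of all genes, with a median log2 ratio of 1.56 and -0.01 for all genes. COL14A1, a fibril-associated collagen, was at 229 CPM in E125 members and 18.3 CPM at E85 (ratio 12.6), and COL6A3 at 210 and 35.9 CPM. In the endothelial gates 4 of 8 collagens (COL4A2, COL4A1, COL12A1, COL15A1) were also higher at E125 and none lower, with a median of 1.04 beside 0.22 for all genes. There the ratio of COL14A1 was 1.89 (0.82 to 5.32), and that of COL6A3 at least 2.00, with 0 UMIs at E85 set to 3. Of 13 insulin-like growth factor genes 8 were higher and none lower (median 1.62), among them IGFBP2 at 458 CPM in E125 members and 51.5 CPM at E85. Between the endothelial gates 6 of 14 of these genes were higher and IGFBP6 lower (median 0.85, beside 0.22 for all genes), and IGFBP2 had a ratio of 3.74 there, beside 8.89 in members. Of 34 other matrix genes 15 were higher and POSTN and MFAP2 lower. LUM, against this, was at 127 CPM in E125 members and 223 CPM at E85.

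The genes that set MGP-low apart from MGP-high at E125 differed by stage to unequal degrees. DLK1 was at 116 CPM in E125 members and 147 CPM at E85, and NRK at 165 and 177 CPM, both within 2-fold. LTBP1 was at 507 CPM in E125 members and 89.8 CPM at E85. Within the E85 library, where MGP-high was 75 barcodes, 5.43% of 6993 genes were 2-fold higher in MGP-low and 1.89% lower. There, MGP-low over MGP-high gave a ratio of 2.40 (1.59 to 3.80) for NRK, 0.93 (0.70 to 1.27) for DLK1, 0.74 (0.53 to 1.05) for LTBP1 and 1.30 (0.72 to 2.64) for INHBA. WNT5A had 1.21 (0.88 to 1.71) there, beside 0.41 (0.38 to 0.45) at E125. Whether the libraries differ in these ratios was not tested, since each has no replicate.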

How the data were processed

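Fetal goat ovary of 2 stages was profiled as 1 droplet library per stage. The authors deposited raw UMI counts per feature and barcode (unnormalised whole numbers). Per the submitters' processing notes they came from Cell Ranger 3.1, while the matrix header, per the file headers, names version 6.0.0; the genome build is not given in the sources used here. All deposited barcodes were kept.

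UMIs were summed over the barcodes of a group and divided by the group's total to give CPM, with exact Poisson intervals, and ratios of CPM carry exact conditional 95% intervals. A gene was measured at 50 or more summed UMIs over both groups and called at 2-fold. In a ratio, a group with fewer than 3 UMIs was set to 3. No p-value was computed. Calling of known folds was tested on simulated counts. For shares of barcodes with a UMI, barcodes were thinned to 2000 UMIs and shallower ones left out. Members were clustered with Leiden (scanpy 1.11.5; 2000 variable genes, rule genes left out, 20 components, 15 neighbours, resolution 0.5). Doublets were not removed: Scrublet's own threshold marked 0 E125 barcodes, so the caller did not work, and an alternative left out the 557 highest scores, 65 of them members. Scaling alternatives used TMM (edgeR 4.0.16) and size factors (DESeq2 1.42.0) on the summed counts. Other tools were Python 3.11.15, numpy 2.4.6, scipy 1.17.1 and R 4.3.3.

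Genes named are the 12 highest and 12 lowest ratios against other E125 barcodes and against MGP-high barcodes, and the 8 highest and 8 lowest against E85. They needed a symbol on 1 feature, 50 CPM on a side and 50 summed UMIs. From each of 22 gene lists, up to 4 members by level and up to 4 by ratio could be named, and for each subset its 6 leading genes. Other genes named as list members past 2-fold, and marker genes, come from those lists and from 13 marker classes. GAS1, BOC, SUFU and other list genes with few UMIs were named because they make up a count. Members and lists were chosen with earlier results of these data known. A few genes that these rules name are not reported here.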

Additional observations from a re-analysis of the deposited data

How the results depend on the processing

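No paired analysis was possible because each stage has 1 library and no result comes from a test. The 12 highest and 12 lowest genes against other E125 barcodes, and the 8 and 8 against E85, kept direction and 2-fold under every alternative run. The 12 lowest against MGP-high all kept direction, 10 of 12 at 2-fold when the rule was applied to thinned barcodes (CCL11 at log2 -0.15, FOS at -0.67) and 11 of 12 without subset 2 (WNT5A at -0.91). Lower minimums of summed UMIs raised the counts by construction, since sparse genes enter. Against other E125 barcodes, 789 genes were higher and 2492 lower; a minimum of 10 UMIs gave 2762 higher, no minimum 6342 higher, thinning 173 higher and 962 lower, other barcodes under 20000 UMIs 317 and 1240, and a mean over barcodes 655 higher, of which 250 are among the 789, and 1330 lower. Against MGP-high (144 and 144), a minimum of 10 gave 526 higher and 339 lower, no minimum 4111 and 339, MGP of 0 alone 265 lower, and barcodes of 2000 to 3000 UMIs 78 higher. Between stages (1244 and 921), a minimum of 10 gave 2179 and 1524, and no minimum 5556 and 1524. The share of E125 barcodes meeting the rule (12.2%) was 16.5% with thinned barcodes, 8.29% at MGP of 0, 15.8% at MGP of 2 or less, 13.8% and 9.01% at 1 or more and 4 or more collagen and TCF21 UMIs, and 6.63% at 1000 or more genes. The E85 share (48.0%) was 50.7%, 45.3%, 51.8%, 37.0% and 31.2% under the same changes, MGP of 2 or less aside, and 50.5% with mitochondrial and doublet filters. Values turned sign for COL12A1 against other barcodes when thinned (log2 -0.0066), and, without subset 2, for FGF7 (-0.24) and RSPO3 (-0.20) against MGP-high. The cause of these moves was not tested. Leaving out subset 2 and matching depth at 2000 to 3000 UMIs were chosen after seeing the data, and subset 2 was itself formed by genes such as FGF7. Genes under 50 summed UMIs are below the depth of these sums.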
